A study of Mus musculus with 12 samples.

Results

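The resistin-like proteins and the chitinase-like proteins are 2 families of secreted proteins several of which mark activated macrophages in mice. The set described here has 8 genes: Retn, Retnla, Retnlb and Retnlg of the first family, and Chil1 (also written Chi3l1), Chil3 (Chi3l3, or Ym1), Chia1 (Chia) and Chit1 of the second. They were chosen by gene name, with results of the same tumor and normal comparison known, so their differences between the groups are given as a description. No p-value is printed for a member, and which members passed the test over all genes is given only beside the share of all genes that did. On the array they are covered by 9 probes of 39429 and make up 8 of 27274 named genes. Probes of 6 of the 8 genes, 7 probes in all, passed the filter on dim probes (detected well above background by 3 or more of the 6 arrays in a group). Chia1 and Chit1 did not.

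Macrophages, labelled only as that cell type, were sorted out of pancreatic tumor and out of normal pancreas of female C57/B6 mice of 4 to 5 months, with 6 arrays per group. For both groups the genotype is labelled as not provided. The protocol says that tumors were implanted into the animals. The design text instead lists 3 kinds of mice: wild-type, KPC (which develop pancreatic cancer from engineered mutations) and FLT3-CRE/LSL-YFP (a lineage reporter). Which of them gave a given sample is not labelled. In each group 1 sample name stands on 2 arrays (normal replicates 2 and 3, tumor replicates 4 and 6), and these were averaged, which left 5 samples per group. The labels do not say that samples came from separate animals, so p-values rest on a spread between samples that may be technical.

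Resistin was first described as a hormone of fat cells in mice. Its relatives are made by macrophages, gut goblet cells or cells of the bone marrow, and Retnla, known as RELM-alpha or Fizz1, is a standard marker of the macrophage state that interleukin-4 and interleukin-13 induce through the factor STAT6. Chil3 and Chil1 have the fold of a chitin-digesting enzyme but do not cut chitin, whereas Chia1 and Chit1 are active chitinases. Chil3 is used beside Retnla and Arg1 as a marker of the same macrophage state, and is also made by neutrophils and their precursors.

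The families sit in gene clusters. By the array annotation (mm9), the probes of Retnlb, Retnla and Retnlg lie on chromosome 16 at 48818874 to 48818933, 48844447 to 48844506 and 48874468 to 48874527, all on the plus strand. The probes of Chia1 and Chil3 lie on chromosome 3 at 105934967 to 105935026 and 105950485 to 105950544, and that of their relative Chil4 at 106006584 to 106006643. Those of Chit1 and Chil1 lie on chromosome 1 at 136047897 to 136047956 and 136086448 to 136086507. The annotation of the array gives no exon or UTR. The probes of Retnlg and Chil3, the members with the largest differences between groups, and both probes of Retn, which disagree, begin as follows (30 of 60 bases each, 5′ to 3′, all in lower case since no base is singled out).

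Retnlg probe, plus strand: gctgagaacctagctttgaaatgaagacta
Chil3 probe, minus strand: tgaacatcttttgcttcctgtaaaaccacc
Retn brighter probe, plus strand: actcacgtgcgcgaatccacacacaagcac
Retn dimmer probe, plus strand: aaagtgtgtcactgccagtgtgcaaggata

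The stretches upstream of Retnla and Retnlg are relatives of each other, as are those of Chil3 and Chil4. They are shown because the genes of each pair shared upstream sequence but had different values across the samples. Sequences are from RefSeq (GRCm38.p6), 250 bases up to the base before the annotated start, written in the direction of the gene. Capitals mark TTCNNNNGAA in Retnla and Retnlg, the letters of a STAT6-type motif, and TTCNNNGAA in Chil3 and Chil4, the letters of a general STAT-type motif.

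Retnla, chr16:48842359-48842608, plus strand: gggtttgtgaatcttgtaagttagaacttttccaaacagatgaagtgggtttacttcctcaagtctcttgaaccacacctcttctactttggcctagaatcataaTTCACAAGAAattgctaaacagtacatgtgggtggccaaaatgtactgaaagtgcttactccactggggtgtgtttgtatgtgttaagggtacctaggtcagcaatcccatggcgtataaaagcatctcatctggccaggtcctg
Retnlg, chr16:48872358-48872607, plus strand: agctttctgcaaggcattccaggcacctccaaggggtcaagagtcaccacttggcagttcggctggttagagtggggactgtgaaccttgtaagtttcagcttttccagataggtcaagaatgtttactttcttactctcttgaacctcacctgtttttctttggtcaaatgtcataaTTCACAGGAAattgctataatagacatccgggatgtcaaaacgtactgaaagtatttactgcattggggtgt
Chil3, chr3:106167565-106167814, minus strand: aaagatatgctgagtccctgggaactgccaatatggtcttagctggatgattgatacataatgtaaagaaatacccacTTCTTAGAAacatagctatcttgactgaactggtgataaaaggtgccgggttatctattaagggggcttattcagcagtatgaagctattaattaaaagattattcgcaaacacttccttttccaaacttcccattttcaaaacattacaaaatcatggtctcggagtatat
Chil4, chr3:106219480-106219729, minus strand: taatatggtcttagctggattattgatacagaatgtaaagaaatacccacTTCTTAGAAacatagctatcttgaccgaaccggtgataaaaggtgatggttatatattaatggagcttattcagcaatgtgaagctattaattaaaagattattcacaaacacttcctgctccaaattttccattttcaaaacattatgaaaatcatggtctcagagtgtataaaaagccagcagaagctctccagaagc

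RefSeq promoters were at hand for 7 of the 8 members, all but Retnlb. The letters TTCNNNNGAA, which read the same on both strands, stood in 5.89% of 32536 promoters and, among the 7 members, in Retnla at -145 to -136 (TTCACAAGAA) and in Retnlg at -72 to -63 (TTCACAGGAA). In both genes the letters ATTGC, part of a CEBP-type motif, followed directly, at -135 to -131 and at -62 to -58. ATTGC or its complement stood in 22.8% of promoters. An alignment of the upstream stretches of Retnla and Retnlg covered 175 bases, of which 138 (78.9%) were identical. For Chil3 and Chil4 it covered 221 bases with 201 (91.0%) identical, and both held TTCTTAGAA, at -172 to -164 and at -200 to -192. TTCNNNGAA stood in 7.04% of promoters. A match says only that these letters are in the window.

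The share of probes well above background was 39.3% to 58.7% per array, at a 75th percentile of signal between 398 and 1547. Each of 3 slides held 4 arrays, 2 from each group. Arrays of 1 sample name correlated at 0.993 and 0.995 over 13227 probes, and other arrays of a group at 0.967 or less. All 14 macrophage identity markers, among them Csf1r, Cd68 and Lyz2, were well above background on all 12 arrays, 0 of 14 passed limma's test between the groups (1 had an unadjusted p under 0.05), and their median difference was -0.031 (log2), beside -0.0041 over all 16402 genes tested. The label of macrophage thus had its defining markers in both groups. Markers of pancreatic acinar cells, the makers of digestive enzymes, were present too: 9 of 10 fell in tumor, and their summed signal ran from 255 to 2847 over normal samples and from 4.91 to 124 over tumor samples, in multiples of each array's 75th percentile. In sorted bulk samples, fewer cells of a type and less RNA per cell cannot be told apart.

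Below, a level is the log2 signal of a probe relative to the 75th percentile of its array, and a difference is the tumor mean minus the normal mean of such levels. The plot of the members by sample shows the levels, and the plot of differences sets them beside the range of all genes.

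**Figure D1:**
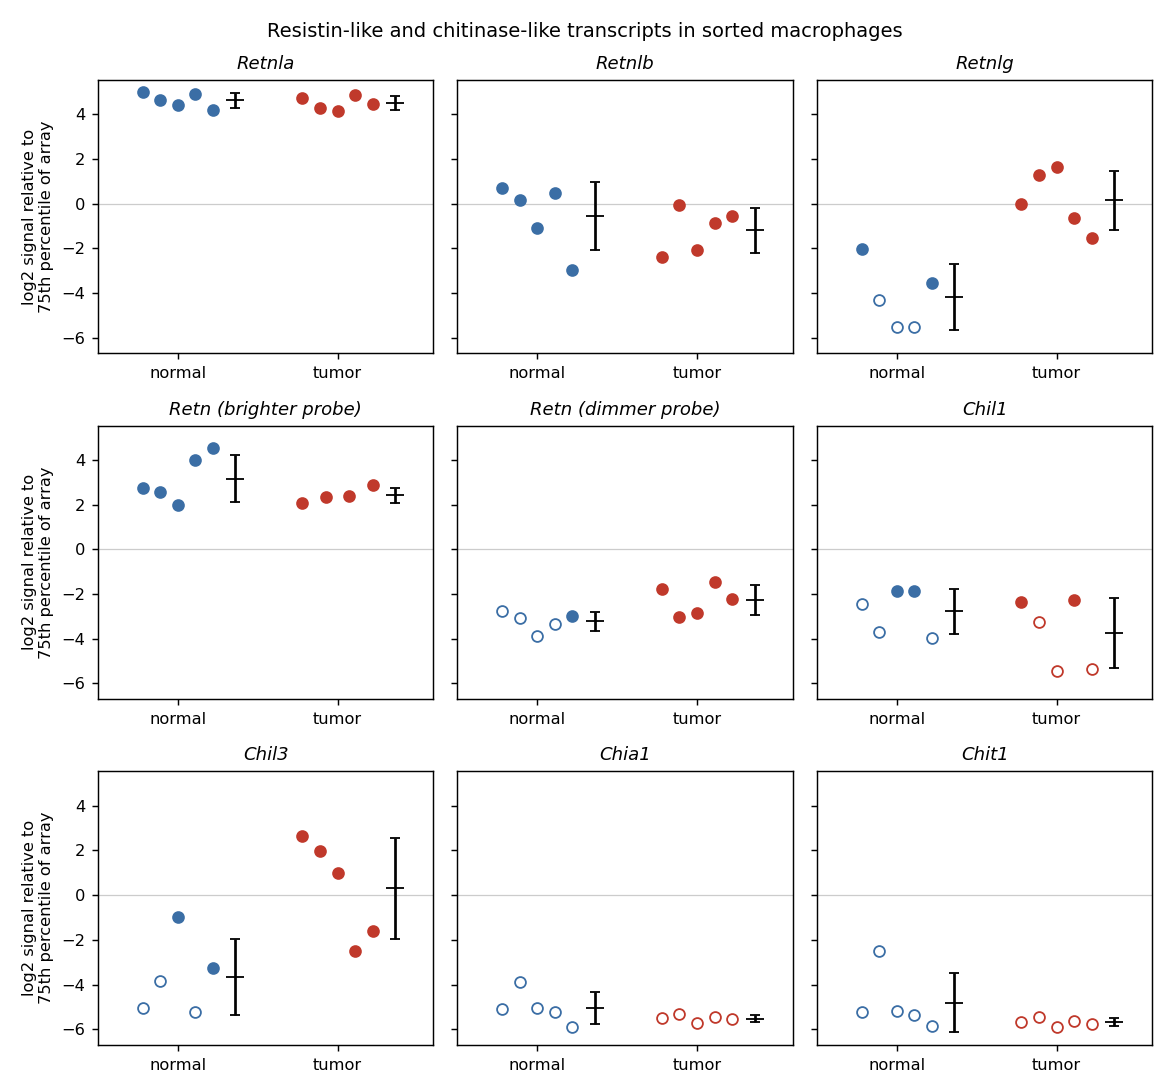
Log2 signal relative to the array's 75th percentile (vertical axis) of each probe of the 8 genes in the 5 normal (blue) and 5 tumor (red) samples, in the order of replicate numbers. Filled points had the probe well above background on every array of the sample, open points did not, and bars give the mean and SD. Retnlg lies higher in every tumor sample than in any normal sample, Chil3 spreads over several log2 units within each group, and Retnla stays between 4.13 and 4.99.

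Retnlg was the member with the largest difference. It encodes RELM-gamma, a resistin-like protein known from bone marrow and neutrophils. Its levels in normal samples were -2.02 in replicate 1, -4.32 in replicates 2 and 3, -5.54 in replicate 4, -5.53 in replicate 5 and -3.55 in replicate 6. In tumor samples they were -0.01 in replicate 1, 1.30 in replicate 2, 1.63 in replicate 3, -0.64 in replicates 4 and 6 and -1.55 in replicate 5. Tumor replicate 3 was highest, and the groups did not overlap, although the lowest tumor sample and normal replicate 1 were close. The means were -4.19 ± 1.48 and 0.15 ± 1.33 (SD, n = 5 each), a difference of 4.34 ± 0.78 (SE) or 20.3-fold. The probe stood well above background on 2 of 6 normal arrays (replicates 1 and 6) and on 6 of 6 tumor arrays, so the size of the fold is uncertain.

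Retnlg was the only one of the 6 members in the test to pass limma's adjusted p under 0.05 (two-sided, Benjamini-Hochberg over all genes), a threshold that 0.847% of the 16402 genes passed (0.335% higher and 0.512% lower). It was also the only one whose tumor samples all lay above all normal samples, as for 1.75% of genes (1.66% for all below). Nothing is read from these counts, since the members were chosen from this comparison. Retnlg passed without normal replicate 1, normal replicate 6 or tumor replicate 5, and missed the threshold without any one of the other 7 samples. With normexp background correction, which lifts dim signals, its difference was 2.04. Within slides it was 3.77, 5.49 and 3.43 for slides 1, 2 and 3, which share samples.

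**Figure D2:**
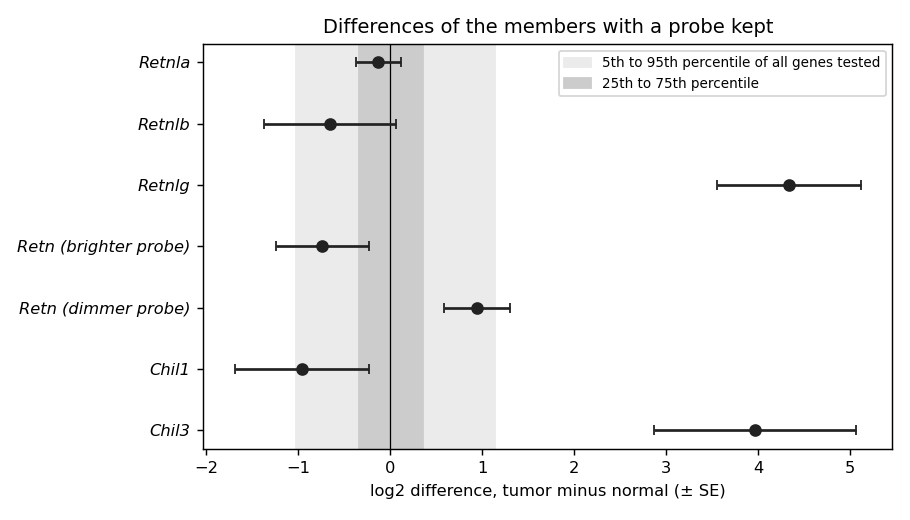
Log2 difference (tumor minus normal, ± SE) of the probes of the 6 members kept by the filter, over the range of all 16402 genes tested: dark grey from the 25th to the 75th percentile (-0.34 to 0.36), light grey from the 5th to the 95th (-1.02 to 1.14). Retnlg (4.34) and Chil3 (3.97) lie beyond the light band, and the other members lie inside it.

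Retnla, which encodes RELM-alpha, differed little between the groups. In normal samples its levels were 4.99 in replicate 1, 4.66 in replicates 2 and 3, 4.40 in replicate 4, 4.91 in replicate 5 and 4.18 in replicate 6. In tumor samples they were 4.74 in replicate 1, 4.26 in replicate 2, 4.13 in replicate 3, 4.88 in replicates 4 and 6 and 4.47 in replicate 5. The groups overlapped throughout. The difference was -0.13 ± 0.24 (SE; means 4.63 ± 0.34 and 4.49 ± 0.31, SD), and the probe was well above background on all 12 arrays. The spread of Retnla within groups, an SD of 0.33, lay at the 16.6th percentile of all genes tested, whereas those of Retnlg (1.40) and Chil3 (2.0) lay at the 93.4th and 99.2nd. The last 2 include background readings. Retnlg signals on normal replicates 2 to 5 were 20.3 to 21.4 before scaling, and their levels still ran from -5.54 to -4.23, with the scale of each array. Retnlg and Retnla, neighbours with related upstream stretches, correlated at -0.19 over the 10 samples after each group's mean was subtracted. That value includes the same background readings.

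Retnlb encodes RELM-beta, a product of intestinal goblet cells. Its levels were 0.71 in normal replicate 1, 0.16 in replicates 2 and 3, -1.08 in replicate 4, 0.46 in replicate 5 and -2.96 in replicate 6. In tumor samples they were -2.38 in replicate 1, -0.08 in replicate 2, -2.08 in replicate 3, -0.88 in replicates 4 and 6 and -0.55 in replicate 5. Normal replicate 6 was lowest and tumor replicates 1 and 3 came next, so that the groups overlapped. The difference was -0.65 ± 0.72 (SE; means -0.54 ± 1.52 and -1.19 ± 0.99, SD), and the probe was well above background on all 12 arrays. Arrays of 1 sample name differed by 0.30 in normal and 0.21 in tumor, less than the spread between samples.

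Of 16291 genes with a value in all 10 samples, the one most like Retnlb after group means were subtracted was Fcgbp, a mucus protein of goblet cells (r = 0.975, Spearman's rho 0.952, 0.951 without the 2 samples farthest from the median of Fcgbp). Akt2, a kinase (0.928), Saa2, an acute-phase protein (0.908, 0.749 without 2 samples), and Adh1, an alcohol dehydrogenase (0.900, 0.718 without 2 samples), came next. The points are samples that share slides and processing, and each value is the highest of many genes, so no p is given. Levels of Fcgbp were 3.36, 2.57, 2.18, 2.81 and -0.54 in the normal samples, in the order of replicates, and 0.19, 2.38, 0.13, 1.77 and 1.88 in the tumor samples. Fcgbp was thus lowest in the same 3 samples as Retnlb.

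Goblet markers as a list moved with Retnlb within groups (r = 0.929 for the mean of 6 genes, of which Fcgbp is one). Of the 6 genes 6 were tested, 1 fell, and the median difference was -0.72. The gene that fell was Zg16, a zymogen granule lectin that acinar cells also make, at -4.29 ± 0.64 (limma adjusted p = 0.012). The summed signal of the list ran from 13.05 to 171 over normal samples and from 4.43 to 10.99 over tumor samples. Zg16 made up 28.5% to 95.1% of it, and without Zg16 the sum was 2.40 to 14.9 and 2.39 to 7.86, which overlapped. None of the 6 was below background on all arrays of a group. The part of other cells in the Retnlb signal was not tested.

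**Figure D3:**
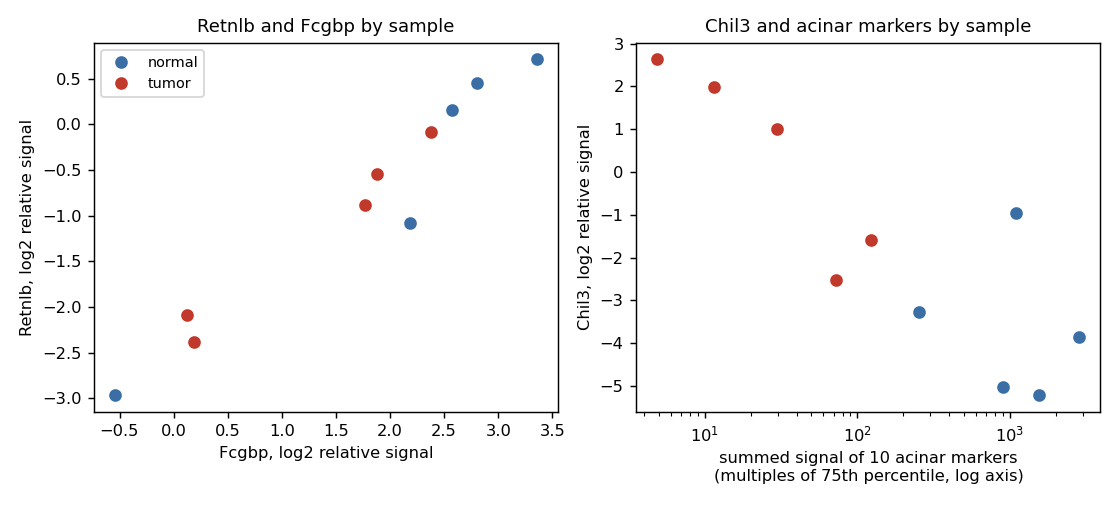
Left, Retnlb against Fcgbp, both as log2 signal relative to the array's 75th percentile, in 5 normal (blue) and 5 tumor (red) samples; the points of both groups lie along a rising line, with normal replicate 6 lowest on both axes. Right, Chil3 (log2 signal) against the summed signal of 10 acinar markers in multiples of the 75th percentile (log axis); the 3 tumor samples with the highest Chil3 have the 3 lowest acinar sums.

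Retn encodes resistin itself, and its 2 probes disagreed. The brighter probe, which lies on chromosome 8 at 3659757 to 3659816 (mm9), had levels of 2.73 in normal replicate 1, 2.55 in replicates 2 and 3, 1.99 in replicate 4, 4.00 in replicate 5 and 4.52 in replicate 6. In tumor samples it had 2.10 in replicate 1, 2.34 in replicate 2, 2.37 in replicate 3 and 2.87 in replicates 4 and 6, and the spot of replicate 5 carried an outlier flag and was dropped. Normal replicates 5 and 6 stood above all other samples. The difference was -0.74 ± 0.50 (SE; means 3.16 ± 1.06, n = 5, and 2.42 ± 0.33, n = 4, SD). With slide as a block, and with no tie between arrays of 1 name, it was -0.32. It was -0.37, -0.17 and -0.46 within slides 1, 2 and 3, -0.43 with outlier spots kept and -0.40 without normal replicate 6. The dropped spot of tumor replicate 5 was on slide 3, so the groups are unequal over slides in the value of -0.74.

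The dimmer probe, at 3657312 to 3657371, had levels of -2.76, -3.08, -3.87, -3.36 and -2.995 in the normal samples, in the order of replicates, and of -1.76, -3.04, -2.86, -1.46 and -2.22 in the tumor samples. It stood well above background on 1 of 6 normal and 6 of 6 tumor arrays, and its groups overlapped. Its difference was 0.94 ± 0.36 (SE; means -3.21 ± 0.42 and -2.27 ± 0.68, SD), of the opposite sign to the brighter probe. The array annotation names both probes Retn and gives 2 RefSeq transcripts for the dimmer probe and 1 for the brighter probe. Whether the probes share a transcript was not checked.

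The brighter probe followed the slides. On slide 3 its 3 arrays with a value read 3.804 to 4.52, and on slides 1 and 2 its 8 arrays read 1.94 to 2.73, with no overlap. Tumor replicates 4 and 6, which carry 1 sample name and lie on slides 2 and 3, read 1.94 and 3.804, a gap of 1.86. For the other members with a probe kept, arrays of 1 name differed by 0.0045 to 0.56. The dimmer probe read -3.36 to -1.45 on slide 3 and -3.87 to -1.47 on slides 1 and 2. In the brighter probe 45.0% of bases are A (the 97.9th percentile of all probes), and it holds 10 CA dinucleotides (the 99.0th percentile). The part of the probe's sequence in the difference between slides was not tested.

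Genes most like the brighter Retn probe within groups were Clmp, an adhesion protein (r = 0.988 over 9 samples), Zfp146, a zinc-finger protein (0.982), Garem2, an adaptor of growth factor signalling (0.970), and Cps1, an enzyme of the urea cycle (0.969). Of these, Zfp146 and Garem2 were also higher on every slide 3 array than on any other array (at least 4.64 against at most 3.97, and at least 1.34 against at most 0.70). Clmp and Cps1 overlapped narrowly (2.79 against 2.88, and 1.45 against 1.49). Of 8 adipocyte markers 5 were tested and 0 passed in limma (1 at an unadjusted p under 0.05), and their summed signal ran from 2.39 to 18.4 over normal samples and from 3.15 to 6.998 over tumor samples, with Lep and Pck1 below background on all arrays and Adipoq on all normal arrays.

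**Figure D4:**
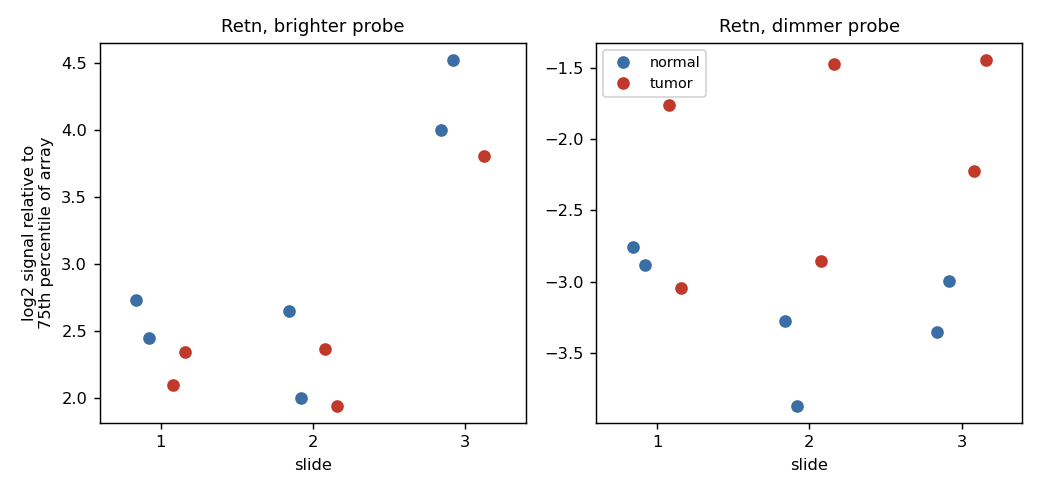
Log2 signal relative to the array's 75th percentile of the brighter (left) and dimmer (right) Retn probe on each array, by slide, normal in blue and tumor in red. The brighter probe reads 3.804 to 4.52 on slide 3 and at most 2.73 on slides 1 and 2, in both groups, whereas the dimmer probe overlaps between slides.

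Among the chitinase-like genes, Chil3, also called Ym1, had the larger difference and the larger spread. Its levels in normal samples were -5.03 in replicate 1, -3.86 in replicates 2 and 3, -0.97 in replicate 4, -5.20 in replicate 5 and -3.26 in replicate 6. In tumor samples they were 2.63 in replicate 1, 1.995 in replicate 2, 1.004 in replicate 3, -2.51 in replicates 4 and 6 and -1.59 in replicate 5. Normal replicate 4 lay above 2 tumor samples, so the groups overlapped. The means were -3.66 ± 1.71 and 0.31 ± 2.25 (SD, n = 5 each), a difference of 3.97 ± 1.101 (SE) or 15.7-fold. The probe stood well above background on 2 of 6 normal arrays (replicates 4 and 6) and 6 of 6 tumor arrays. Within slides 1, 2 and 3 the difference was 6.74, 1.53 and 2.32, and with normexp correction it was 1.82, so its size is uncertain.

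The 3 tumor samples with the highest Chil3 had the lowest acinar sums. These sums were 4.91, 11.46 and 29.7 for tumor replicates 1, 2 and 3, against 72.0 for replicates 4 and 6 and 124 for replicate 5. Within groups Chil3 correlated over 10 samples at 0.75 with the mean of the monocyte list and 0.55 with that of the neutrophil list. The acinar, adipocyte and goblet lists gave -0.64, -0.67 and -0.68, so the acinar value was not particular. The gene most like Chil3 was Rab14, a GTPase of endosomes (r = 0.974, rho 0.976, 0.952 without 2 samples), followed by Umps, an enzyme of pyrimidine synthesis (0.948), Ccdc115, a factor of V-ATPase assembly (0.947), and Ndufaf4, an assembly factor of respiratory complex I (0.946). Chil3 and Retnlg correlated at only 0.17. Normal replicate 4 was highest for Chil3 among normal samples, while its Retnlg spot was not well above background. Each of the 2 probes was well above background on only 2 of 6 normal arrays, so little is read from that correlation. The other correlations of Chil3 include the same background readings. The part of acinar, monocyte or neutrophil RNA in Chil3 was not tested.

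Chil4, or Ym2, is the near copy of Chil3 and no member of the set. Its levels were -1.86, -4.26, -5.47, -5.50 and -3.70 in the normal samples and -2.57, -2.45, -2.51, -2.23 and -2.05 in the tumor samples, in the order of replicates. Tumor samples lay between -2.57 and -2.05, while normal replicate 1 was above all of them. The difference was 1.80 ± 0.61 (SE; limma adjusted p = 0.24, and 0.0357 without normal replicate 1), with the probe well above background on 2 of 6 normal and 6 of 6 tumor arrays. Chil4 missed the threshold in 9 of 10 fits without 1 sample and in 11 of 11 other settings (0.614 at most). Cross-hybridisation between Chil3 and Chil4 was not tested. Chid1, a lysosomal member of the fold, differed by 0.32 ± 0.25 (adjusted p = 0.609), and Chil5, Chil6, Ctbs and Ovgp1 were not well above background on any array.

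Chil1, which encodes the secreted protein YKL-40 of macrophages, neutrophils and matrix cells, was dim. Its levels were -2.44, -3.68, -1.85, -1.88 and -3.97 in the normal samples and -2.34, -3.25, -5.43, -2.28 and -5.33 in the tumor samples, in the order of replicates. Tumor replicates 3 and 5 were lowest, and the groups overlapped. The difference was -0.96 ± 0.73 (SE; means -2.76 ± 1.004 and -3.73 ± 1.56, SD), with the probe well above background on 2 of 6 normal and 3 of 6 tumor arrays. Genes most like Chil1 within groups were Bricd5 (r = 0.942), Scrn3 (0.938), Tstd2 (0.910) and Bmyc (0.910). These correlations include background readings of Chil1 in both groups, so little is read from them.

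Neither gene for an active chitinase gave a measurable signal. Chia1, the acidic mammalian chitinase, and Chit1, chitotriosidase, a lysosomal enzyme of macrophages, were not well above background on any of the 12 arrays, so no fold is given. Levels of Chia1 lay between -5.88 and -3.89 over normal samples and between -5.74 and -5.32 over tumor samples, and those of Chit1 between -5.83 and -2.49 and between -5.90 and -5.43. Such values are background and have no order.

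Genes most like Retnlg within groups were Usb1, an RNA-processing enzyme (r = 0.937, rho 0.939, 0.937 without 2 samples), Atrip, a partner of the ATR kinase (0.934), Perm1 (0.903) and Olfr791, an olfactory receptor (0.901). Those most like Retnla were Cp, ceruloplasmin (0.908), Jun, an AP-1 subunit (0.906), Maoa, a monoamine oxidase (0.896), and Hax1 (0.886). The correlations with Retnlg include its background readings on normal arrays, so little is read from them. No listed gene stood in the lists of more than 1 member.

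Neutrophils and monocytes are known sources of Retnlg and Chil3, and their markers moved as follows. Of 20 neutrophil markers 16 were tested and 0 passed in limma (6 had an unadjusted p under 0.05), with 9 positive and a median of 0.30. Their summed signal was 23.9 to 33.4 over normal samples and 28.9 to 47.3 over tumor samples, but Csf3r alone made up 40.8% to 78.2% of it. Without Csf3r the sum was 6.15 to 10.5 in normal and 6.56 to 28.0 in tumor samples, which overlapped. S100a8, Elane, Prtn3, Fcnb and Stfa2l1 were below background on all normal arrays, and Elane and Stfa2l1 on all tumor arrays as well. S100a8, a calcium-binding protein of neutrophils and monocytes, differed by 2.67 ± 0.69 (adjusted p = 0.125), and Mmp8, neutrophil collagenase, by 2.55 ± 0.98 (0.310). Mmp8 was well above background on 1 of 6 normal and 4 of 6 tumor arrays, with tumor levels from -5.68 to 0.68. Mmp9, another protease of neutrophils, differed by -2.37 ± 0.61 (0.124), and Ctsg, of the same list, by -0.95 ± 0.26 (0.152). Within groups Retnlg correlated at 0.59 with the mean of the neutrophil list, close to 0.57 for the resident macrophage list, beside 0.47 for the adipocyte and -0.53 for the acinar list. These correlations include background readings of Retnlg on normal arrays. The part of neutrophils in the Retnlg difference was not tested.

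Of 9 monocyte markers tested 3 rose and 0 fell (5 had an unadjusted p under 0.05), 7 were positive, and the median was 0.89. F10, coagulation factor X, rose by 2.69 ± 0.30 (limma adjusted p = 0.00429), and Hp, haptoglobin, by 3.20 ± 0.43 (0.00765). Hp levels were highest in tumor replicates 1, 2 and 3 (4.07, 4.82 and 4.10, against at most 3.14 in other samples), the samples with the highest Chil3. The summed signal of the list was 252 to 805 in normal and 391 to 530 in tumor samples, but Ms4a4c alone made up 78.0% to 94.4% of it. Without Ms4a4c the sum was 25.4 to 49.9 in normal and 63.9 to 117 in tumor samples, which did not overlap. That sum again rests on few genes. Fn1, fibronectin, F10 and Hp had the highest mean tumor levels of the rest (5.24, 4.36 and 3.72), and Plac8 came next at 2.52. Of 12 resident macrophage markers 0 rose and 1 fell, all 12 differences were negative (10 at an unadjusted p under 0.05), the median was -1.98, and Igf1, a growth factor, fell by 2.21 ± 0.24 (adjusted p = 0.00429). Of 31 tested markers of eosinophils, dendritic cells, lymphocytes, serous cavity macrophages, epithelium, fibroblasts and endothelium, 0 passed in limma (4 had an unadjusted p under 0.05).

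The IL-4 pathway was followed from ligand to target. Transcripts of the ligands Il4 and Il13 were not well above background on any array. Of 14 genes of IL-4 and IL-13 sensing 11 were tested, 0 rose and 1 fell (5 had an unadjusted p under 0.05), and the median difference was 0.22. Il4ra, the shared receptor chain, differed by 0.78 ± 0.23 (limma adjusted p = 0.179), with levels of 4.20 to 4.93 in normal and 5.11 to 5.85 in tumor samples that did not overlap. Jak3, a kinase of that receptor, differed by 1.19 ± 0.25 (0.063). Jak3 passed the threshold with slide as a block and arrays tied by name, in 4 of the other settings (lowest adjusted p 0.0122) and without normal replicates 2 and 3 (0.044). Jak3 missed in 6 of 11 settings and in 9 of 10 fits without 1 sample (0.331 at most). Stat6, its transcription factor, differed by 0.18 ± 0.22 (0.756). Tslp, an epithelial cytokine that promotes type 2 responses, was on no tumor array well above background and was lower there (0.0217). In normal pancreas just 3 arrays detected it clearly, and the normal mean includes the dim readings of the rest. The computed bound of 1.63-fold is thus no firm minimum, and the size of the fall is uncertain. The call of Tslp was lost without normal replicate 5 or tumor replicates 1, 2, 3 or 5 (0.0751 at most). It was also lost with quantile scaling, normexp correction, the authors' log2 table or a trended variance (0.126 at most).

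Of 19 other genes that IL-4 induces in macrophages, 17 were tested, 2 rose and 0 fell, 13 were positive, and the median was 0.99. At an unadjusted p under 0.05 stood 10 of them. Of those 10 only Ccl24, a chemokine, was lower in tumor, by -1.63 ± 0.59 (limma adjusted p = 0.274). Ccl17, a T-cell chemokine, rose by 3.44 ± 0.67 (adjusted p = 0.0456), and missed the threshold when samples were left out in turn, except without normal replicate 6 or tumor replicate 3 (0.128 at most). Pdcd1lg2, the gene of PD-L2, was on no normal array well above background, and tumor samples had at least 4.52-fold higher signal (0.006, but 0.17 with normexp correction). Arg1, arginase, differed by 3.68 ± 0.79 (0.0642), from levels of -4.35 to -1.15 in normal to -0.82 to 2.30 in tumor samples, which did not overlap. It passed with normexp correction, with the stricter filter on dim probes, with 12 arrays as separate samples and with a trended, robust variance (lowest adjusted p 0.0205). Arg1 missed the threshold in 7 of 11 such settings and in 10 of 10 fits without 1 sample (0.165 at most). Cish, a feedback inhibitor of cytokine signalling, differed by 2.63 ± 0.64 (0.106, and 0.0295 at the lowest over settings). Cish missed in 9 of 11 such settings and in 10 of 10 fits without 1 sample (0.236 at most). Mrc1, the mannose receptor, and Mgl2, a lectin, differed by -0.18 ± 0.26 and 0.01 ± 0.21 (0.796 and 0.988).

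The standard marker genes thus had different values in the same samples. Differences of 3.68 for Arg1 and 3.97 for Chil3 stood beside -0.13 for Retnla and -0.18 for Mrc1. The probes of Arg1 and Chil3 were well above background on only 3 and 2 of 6 normal arrays. Over processing settings their differences fell to as little as 2.18 and 1.82, so their sizes are uncertain. Retnla and Mrc1 were well above background on 6 of 6 arrays of each group.

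**Figure D5:**
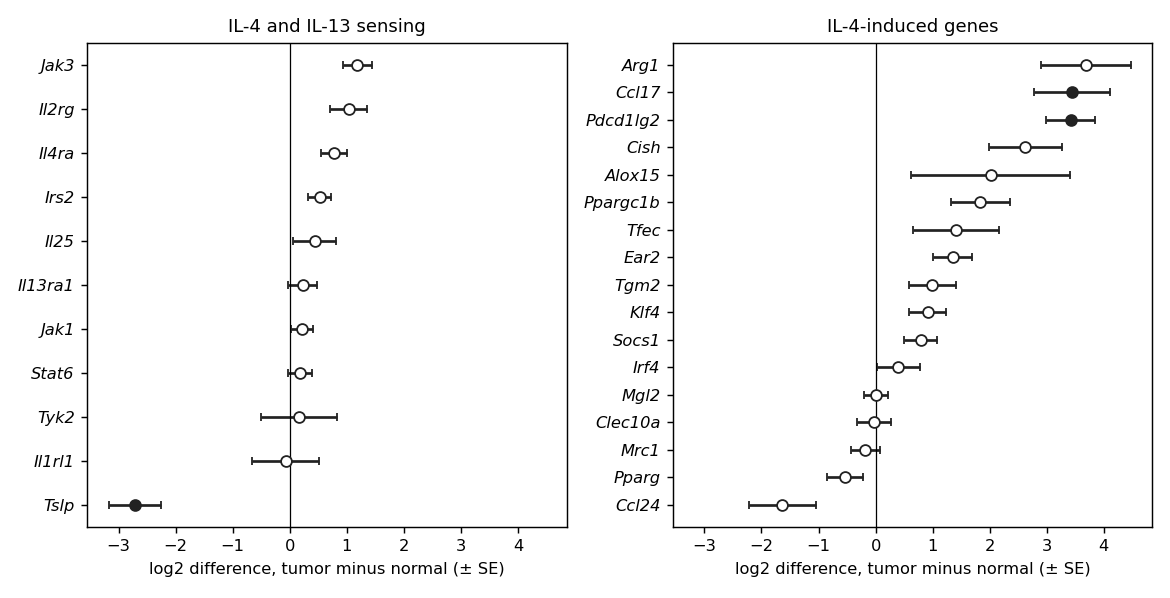
Log2 difference (tumor minus normal, ± SE) of the tested genes of IL-4 and IL-13 sensing (left, 11 genes) and of other IL-4-induced macrophage genes (right, 17 genes). Filled points passed limma's adjusted p under 0.05: Tslp, which was lower in tumor, and Ccl17 and Pdcd1lg2, which were higher; Mrc1, Clec10a and Mgl2 lie near 0.

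Of 13 proposed receptors and partners of these proteins 10 were tested and 0 passed in limma in either direction, with 0 at an unadjusted p under 0.05. Of them 5 were positive, and the median was -0.025. Ptgdr2, a prostaglandin D2 receptor, differed by 0.56 ± 0.30 (adjusted p = 0.459), Tmem219, a proposed receptor partner for Chil1, by 0.31 ± 0.19 (0.526), and Dcn, decorin, by -0.65 ± 0.47 (0.585). Cap1, a proposed resistin receptor, differed by 0.01 ± 0.22. Tlr4 and Fibcd1 were not well above background on any array.

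Of 8 myeloid transcription factors 7 were tested and 0 passed in limma (2 at an unadjusted p under 0.05), 6 were positive, and the median was 0.32. Cebpe, a factor of granule-forming myeloid cells, differed by 1.86 ± 0.38 (adjusted p = 0.0563, 0.0262 without normal replicate 6, and 0.0158 at the lowest over other settings). Cebpe missed the threshold in 8 of 11 other settings and in 9 of 10 fits without 1 sample (0.206 at most). Its levels were -2.17 to -0.62 in normal and -0.33 to 1.04 in tumor samples. Cebpb, a factor that acts with STAT6 at macrophage genes, differed by 0.72 ± 0.32 (0.373), and Cebpa by 0.36 ± 0.23 (0.528).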

How the data were processed

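Messenger RNA of sorted macrophages was measured on 12 single-colour Agilent arrays. Per the labels' protocols, cells were sorted straight into lysis buffer, and a whole-transcriptome kit amplified the cDNA before it received Cy5, so folds are those of amplified material. Arrays were read, per the file headers, with Agilent Feature Extraction 11.5.1.1 and annotated on mm9. The intensity that the authors deposited per spot is a processed signal in the red channel, with background subtracted by the software. The authors also deposited a log2 table, whose values equalled quantile-normalized processed signals within a median absolute difference of 1.73e-04 or less, with a median of 7.08 on each array.

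Of 43020 spots per array that were not controls, 0.401% carried outlier flags and were left out, and 0 were saturated. Log2 processed signals were averaged per probe (39429 probes), scaled by subtracting each array's 75th percentile, and 22446 probes were kept that lay well above background in 3 or more of the 6 arrays in at least 1 group. Names came by accession (28025), symbol (3413) or synonym (295) from a table of GRCm38.p6, used for names only. The file's own name stood for 4985 and 2711 had none. A gene was taken from its brightest probe (16402 genes).

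Arrays of 1 sample name were averaged. Groups of 5 samples were tested by lmFit and eBayes of limma 3.58.1 (R 4.3.3), two-sided, at an adjusted p under 0.05 by Benjamini-Hochberg for 16402 genes, with a median SE of 0.35 and 10.8 degrees of freedom. The fit was checked on simulated data. Precision is limited by how many arrays there are. A gene below background on all arrays of a group has a bound there: the brighter mean over the dimmer mean, in which each array counts with the higher of its lowest well-above-background signal and the probe's own.

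The members and lists were chosen with earlier results of these data known. The rule for named genes took every member, the 3 tested genes of each list with the smallest p and the 4 named genes most like each member, and not all are described; 1 result that the rule takes is not reported here. Stat6, Cish, Mrc1, Mgl2, Clec10a, Cap1 and Mmp8 were named after their values were seen. So were Ccr2, Plac8, Ms4a4c, Cd177, Fn1 and Ccl24. The handling of shared sample names, slides, background correction, scaling, filters, probes, the variance model, thresholds and leaving out samples were varied.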

Additional observations from a re-analysis of the deposited data

Results flagged for a closer look

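Chit1 stood apart in 1 normal sample: the average of normal replicates 2 and 3 was -2.49 (log2 signal relative to the array's 75th percentile), and the nearest other normal sample was -5.19. The gap was 0.807 of the group's range, above Dixon's critical value of 0.71 for 5 samples. Among the 16 groups of values examined, chance alone would mark about 1 in 20. Both arrays of that sample read alike, at -2.48 and -2.50, on different slides, but Chit1 was not well above background on either. All Chit1 values are thus background without order, and nothing is read from the gap.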

How the results depend on the processing

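The number of genes passing (139, of which 55 higher and 84 lower) was 214 with normexp background correction, 460 with 12 arrays as separate samples, 235 with a trended and robust variance, 45 at an adjusted p under 0.01 and 263 under 0.1. In limma it was 0 within slides 1, 2 and 3, where 1591, 1559 and 952 genes had an unadjusted p under 0.05. Leaving out samples in turn gave 59 to 197 genes (83, 88 and 59 without normal replicates 1, 4 and 5, 77 and 71 without tumor replicates 1 and 2). Of the members, the log2 difference of Retnlg moved to 2.04 and that of Chil3 to 1.82 with normexp. Chil3 was at 6.74 on slide 1 and 1.53 on slide 2, and on slide 2 Chia1 was at -1.07 and Chit1 at -1.91, both below background. The dimmer Retn probe, added after the data were seen, gave 0.94. The causes were not tested. All other settings moved the members' differences by less than 1 SD between samples: leaving out samples gave 3.97 to 4.88 for Retnlg, 3.39 to 4.67 for Chil3, -0.24 to -0.038 for Retnla, -1.26 to -0.34 for Retnlb, -1.03 to -0.40 for Retn, -1.32 to -0.54 for Chil1, -0.71 to -0.21 for Chia1 and -1.12 to -0.28 for Chit1. Of 24 settings, Retnla changed sign in 2, and Retnlb, Chil1 and Chia1 in 1 each. Without the filter on dim probes the median of all genes was -0.26, and with all other settings it stayed within 0.064 of 0. On slide 3 alone the difference of Fcgbp was 0.66 and that of Ptgdr2 -0.058. Cap1, near 0, was at -0.0051 when arrays were scaled to the median of always-detected probes, at -0.00068 when the model held slide and sample name, at -0.11 on slide 2 and at -0.035 on slide 3, and leaving out samples gave -0.060 to 0.085, or -0.086 without normal replicates 2 and 3. No paired analysis was possible because no replicate number in the labels pairs single samples across the groups. Slides, which hold arrays of both groups, were taken as a block instead, and 150 genes passed when slide and sample name were modelled. The amplified signal of dim probes near background limits the folds of Retnlg, Chil3 and Chil1.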
